A study of Homo sapiens with 4 samples.

Results

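The region described here is a stretch of 1.1 Mb of chromosome 19 (19q13.41, hg19/GRCh37 chr19:53000001-54100000) that holds a cluster of KRAB zinc finger protein genes, among them ZNF28 and ZNF468. Its members were chosen by position alone, as every CpG site between those coordinates, which gave 18006 CpG sites of 27710999 measured on the autosomes and chromosome X. Methylation was read by EM-seq, an enzymatic counterpart of bisulfite sequencing that turns cytosines without a methyl group into bases read as T and leaves methylated ones read as C. HEK293T, an established human embryonic kidney cell line, was sequenced as wild type (WT, 2 libraries) or with ZNF274 deleted on all copies by CRISPR-Cas9 cuts on both sides of the gene (ZNF274KO, 2 libraries), with no other treatment named. ZNF274 is itself a KRAB zinc finger protein. Nothing in the labels says whether the libraries of a group came from separate clones or cultures, so that the spread between them may be technical. The p-values of the fitted models rest on this spread, pooled in part over all regions of a kind.

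Each library held between 241598512 and 295114493 C or T calls at CpG sites genome-wide, with a median of 8 to 10 per site, and the region had a median of 6 to 8. The CpG sites of ZNF274, at chr19:58694396-58724928, had 5158 and 4274 reads in the WT libraries against 0 and 14 in the ZNF274KO libraries. The region took up nearly the same share of all reads in both genotypes, with a ratio of ZNF274KO over WT of 0.987 (1.10 for its share of chromosome 19). The mCG level is the percentage of calls with a methylated cytosine, summed over the CpG sites of a stretch, and differences are given in percentage points as ZNF274KO minus WT.

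KRAB zinc finger proteins bind DNA through arrays of C2H2 zinc fingers and recruit the corepressor TRIM28, best known for silencing transposable elements. Their genes arose by repeated duplication, lie in clusters, and usually carry the whole finger array in the last coding exon. In mammalian cells an active CpG-rich promoter is typically free of methylation, while the body of a transcribed gene is typically methylated. The region also holds ERVV-1 and ERVV-2, envelope genes of endogenous retroviral origin, the vomeronasal receptor genes VN1R2 and VN1R4, and ZNF331, a zinc finger gene known to be imprinted.

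Stretches of 5 loci show the kinds of sequence on which the results turn. They were chosen after their values were seen, read from GRCh37, and written 5′ to 3′ on the strand of the gene, with each CG in capitals. The first is the stretch just before the start of ZNF28 (minus strand, chr19:53360854-53361103, 23 CGs), where no methylation was measured in any library.
ZNF28 start: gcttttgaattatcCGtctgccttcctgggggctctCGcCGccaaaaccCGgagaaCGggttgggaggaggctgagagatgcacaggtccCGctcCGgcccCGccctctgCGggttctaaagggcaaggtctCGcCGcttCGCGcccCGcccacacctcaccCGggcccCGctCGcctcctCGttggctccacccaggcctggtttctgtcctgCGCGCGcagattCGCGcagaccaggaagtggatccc
The next is the 250 bases of the ZNF611 promoter farthest upstream of its start (minus strand, chr19:53239077-53239326, 12 CGs), the part of that promoter where the methylation level fell most.
ZNF611 farthest upstream 250 bases: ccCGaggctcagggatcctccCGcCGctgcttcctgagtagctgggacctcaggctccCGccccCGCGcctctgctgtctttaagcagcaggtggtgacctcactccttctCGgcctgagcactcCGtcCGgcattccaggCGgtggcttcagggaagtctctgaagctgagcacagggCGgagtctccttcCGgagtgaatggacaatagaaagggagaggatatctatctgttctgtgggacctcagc
The start of ZNF331 (plus strand, chr19:54022531-54022780, 2 CGs) shows a CG-poor stretch that gained methylation.
ZNF331 start: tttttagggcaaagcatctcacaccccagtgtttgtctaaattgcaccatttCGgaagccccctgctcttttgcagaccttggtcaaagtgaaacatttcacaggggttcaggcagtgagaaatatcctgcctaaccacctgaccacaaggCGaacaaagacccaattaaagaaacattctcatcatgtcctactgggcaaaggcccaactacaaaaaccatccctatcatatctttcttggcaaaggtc
The last pair comes from inside the zinc finger arrays of ZNF600 (minus strand, chr19:53269209-53269460, 6 CGs) and ZNF468 (minus strand, chr19:53344424-53344675, 5 CGs), whose last coding exons are 81.2% identical over 1410 aligned positions.
ZNF600 last coding exon, part: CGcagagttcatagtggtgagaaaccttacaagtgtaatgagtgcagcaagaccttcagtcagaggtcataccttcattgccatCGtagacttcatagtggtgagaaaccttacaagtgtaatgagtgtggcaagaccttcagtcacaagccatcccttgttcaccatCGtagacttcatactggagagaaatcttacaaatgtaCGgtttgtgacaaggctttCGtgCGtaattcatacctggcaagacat
ZNF468 last coding exon, part: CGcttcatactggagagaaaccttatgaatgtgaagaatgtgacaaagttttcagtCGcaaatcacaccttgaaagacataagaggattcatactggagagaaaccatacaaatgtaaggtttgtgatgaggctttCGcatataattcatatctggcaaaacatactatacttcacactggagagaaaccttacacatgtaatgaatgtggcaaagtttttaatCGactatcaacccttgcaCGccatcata

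In the stretch before the start of ZNF28 the level was 0% in all 4 libraries, with 135 to 165 reads each, which allows a level of up to 1.82% to 2.22% (3 counts of the total). The ZNF611 stretch had 88.0% and 84.5% in WT 1 and WT 2 against 5.79% and 12.2% in ZNF274KO 1 and ZNF274KO 2, and was thus mostly methylated in WT and mostly unmethylated in ZNF274KO. The ZNF331 stretch went the other way, from 14.3% and 7.14% to 72.2% and 57.1%, over only 14 to 28 reads per library. Its 95% exact (Clopper-Pearson) intervals were correspondingly wide, 0.181% to 33.9% in WT 2 and 34.0% to 78.2% in ZNF274KO 2. Such intervals and limits cover counting error only, and CpG sites on the same read are not independent. The part of the ZNF600 finger array shown read 0% (of 58 reads, which allows up to 5.17%) and 4.92% in WT and 61.0% and 55.9% in ZNF274KO. The part shown of the ZNF468 array read 94.3% and 90.0% in WT and 93.8% and 96.9% in ZNF274KO. Only 3 of the 6 CpG sites of the ZNF600 part and 2 of the 5 of the ZNF468 part have converted surroundings that occur once in the genome. The same holds for only 8 of the 23 sites before ZNF28, and for 11 of the 12 of ZNF611 and 2 of the 2 of ZNF331.

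Over the whole region the mCG level was 40.1% and 39.4% in the WT libraries and 65.4% and 56.1% in the ZNF274KO libraries. The means were 39.8% ± 0.438 and 60.7% ± 6.61 (SD, n = 2), a difference of 21.0 points, with no overlap between the genotypes. An exact two-sided permutation test over libraries gave p = 0.333, the smallest that 2 against 2 libraries allow. The genome-wide level moved by -0.541 points, so that the region rose by 21.5 points relative to it, also with an exact permutation p = 0.333. The stretches of the same length on either side moved by 12.4 points (before) and 5.94 points (after). The region thus differed more than its neighbours, by 8.56 and 15.0 points, each with p = 0.333 by exact permutation.

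The difference depended on how closely CpG sites were spaced. The counts that follow are of CpG sites within 100 bases on either side and include the site itself. Sites with 1 to 2 CpG sites within 100 bases went from 29.8% to 56.1%, and those with 3 to 5 from 38.5% to 63.8%. Sites with 6 to 9 went from 44.3% to 65.2%. Sites with 10 or more, the CpG-rich stretches, went only from 46.2% to 52.8%. Because duplicated genes share sequence, the 11673 sites (64.8%) whose converted surroundings occur only once in the genome were also taken alone, and went from 39.8% to 59.4%.

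The region was then summed in 5 kb tiles, and all 220 had enough reads to be tested (20 reads and 5 CpG sites in every library). Of these, 126 were higher in ZNF274KO and 1 was lower at an adjusted p under 0.05 (quasi-likelihood test of edgeR, Benjamini-Hochberg adjustment over all tiles of the genome). Genome-wide 0.473% of tiles were called higher and 0.013% lower, against 57.3% called higher in the region. In the stretches of the same length on either side 33.6% (before) and 10.9% (after) of tiles were called higher. In 165 tiles the lower of the ZNF274KO libraries exceeded the higher of the WT libraries, which was the case in 13.5% of all tiles. The median difference was 21.4 points. ZNF274KO 1 exceeded ZNF274KO 2 in 202 of the 220 tiles, so that the size of the rise was not the same in the 2 knockout libraries. With limma in place of edgeR 22 tiles were called, all higher, against 0.152% of all tiles. Tiles of 2 kb gave 302 calls of 548 (0.452% genome-wide) and tiles of 10 kb 66 of 110 (0.504%).

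**Figure D1:**
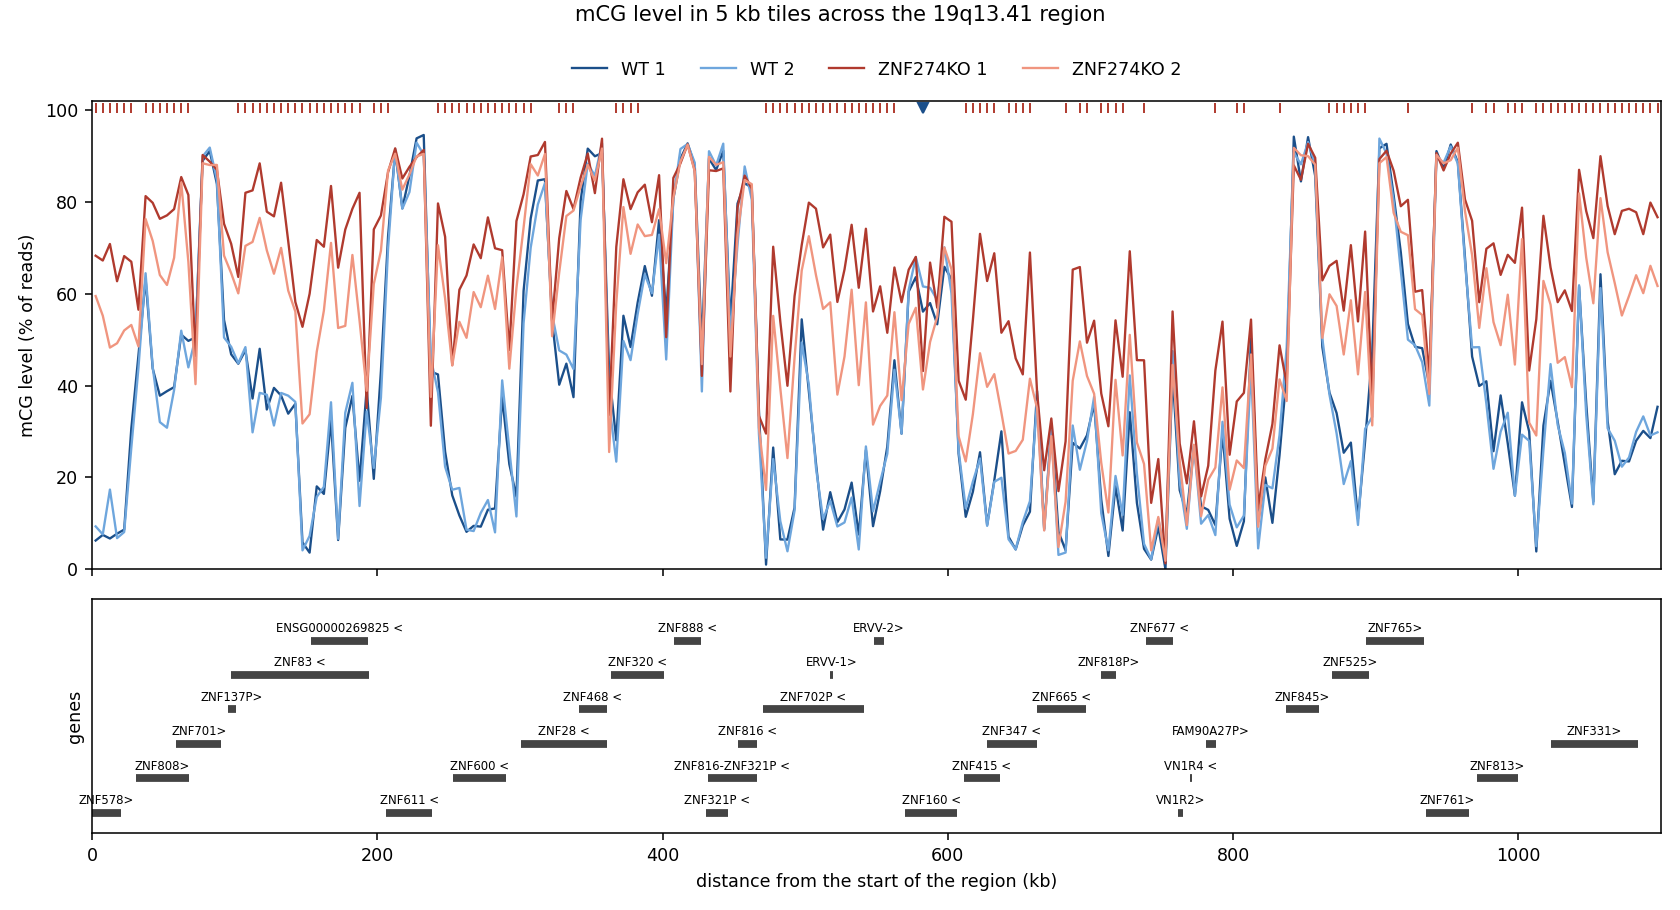
mCG level (percentage of reads, vertical axis) of the 220 tiles of 5 kb along the region in each library (blue WT, red ZNF274KO), against the distance in kb from its start, with the genes and their direction of transcription (arrowheads) below. Ticks along the top mark the 126 tiles called higher in ZNF274KO and the blue triangle the 1 tile called lower; the peaks near 90% coincide in all 4 libraries, while most of the valleys between them are higher in ZNF274KO, and 14 of the 67 tiles under 20% in WT were not called higher.

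The tiles that rose lay in 23 runs. The longest run covered 95 kb (chr19:53470001-53565000) over ZNF702P, ERVV-1 and ERVV-2, and there the mean level was 19.5% and 18.8% in WT and 62.9% and 47.5% in ZNF274KO. Reads were denser in part of this run, with 1194 to 1660 per library over 92 CpG sites at chr19:53530001-53535000. The tile at chr19:53510001-53515000 of the same run held 575 to 779 over 88 sites. The reason for the denser reads was not tested. Runs of 90 kb covered ZNF83 (chr19:53100001-53190000) and ZNF331 (chr19:54010001-54100000). A run of 70 kb (chr19:53240001-53310000) covered ZNF600 and the 3′ end of ZNF28, with 25.9% and 25.0% in WT and 69.4% and 60.8% in ZNF274KO. The largest rises of single tiles were in ZNF600 and ZNF578 and in the gap between ZNF600 and ZNF28. The tile at chr19:53265001-53270000 in ZNF600 read 9.43% and 8.29% in WT and 70.8% and 60.4% in ZNF274KO, a rise of 56.7 points (adjusted p = 3.84e-07, edgeR). It was followed by 56.3 points at chr19:53275001-53280000 in ZNF600, 56.1 at chr19:53000001-53005000 and 53.7 at chr19:53005001-53010000 in ZNF578, and 54.9 at chr19:53295001-53300000 between genes.

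The tile that fell was at chr19:53580001-53585000, inside ZNF160, with 56.1% and 61.6% in WT and 43.2% and 39.1% in ZNF274KO (-17.7 points, adjusted p = 0.0488, edgeR). This call was lost when WT 2, ZNF274KO 1 or ZNF274KO 2 was left out and when CpG sites in repeated sequence were left out, with differences between -19.7 and -15.0 points. The tile in ZNF160 was also not called by limma (adjusted p = 0.475). The next largest falls did not pass the test in edgeR. They were -10.1 points in the tile that holds the start of ZNF611, -9.91 points in the tile with the starts of ZNF28 and ZNF468, -9.49 points at the start of ZNF321P and -7.12 points inside ZNF701.

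How far a tile rose went with its level in WT. A level near the top of the scale leaves little room to rise, and this limit was not separated from the pattern. Of the tiles under 20% in WT, 53 of 67 were called higher. The counts were 48 of 64 from 20 to 40%, 20 of 41 from 40 to 60% and 5 of 16 from 60 to 80%. Of the 32 tiles above 80% in WT none was called in edgeR, 8 had an unadjusted p under 0.05, and the differences ran from -4.55 to 7.23 points. Over the genome 1.47% of tiles under 20% in WT were called higher, and the shares in the classes that follow were 0.965%, 0.366%, 0.0626% and 0.000741%. Tiles inside gene bodies were called higher in 95 of 153 cases and tiles between genes in 17 of 27, while tiles that overlap a promoter were called in 14 of 40. Over the genome the shares were 0.42%, 0.497% and 0.725% in the same order.

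**Figure D2:**
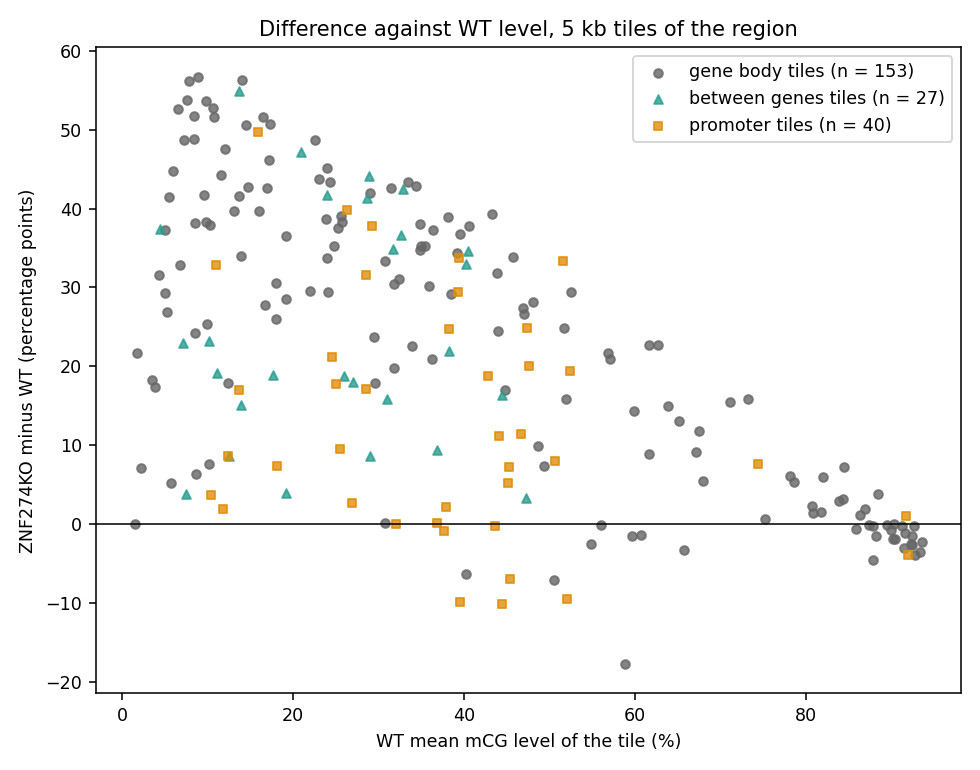
Difference in mCG level between ZNF274KO and WT (percentage points, vertical axis) against the mean WT level (%, horizontal axis) for the 220 tiles of 5 kb; circles are tiles in gene bodies, triangles tiles between genes and squares tiles that overlap a promoter. Tiles above 80% in WT lie close to 0, the largest rises belong to tiles under 20%, and the tiles with starts of ZNF28, ZNF468 and ZNF611 lie below 0.

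Gene bodies, taken from 1000 bases inside the start to the 3′ end, were compared apart from promoters. Of 33 genes that touch the region 32 could be tested, and VN1R4 was too short. The bodies of 20 genes rose in ZNF274KO and none fell, where 1.22% of all gene bodies of the genome were called higher and 0.052% lower. Among the 21 KRAB zinc finger genes 11 rose, and their median difference was 11.0 points. Among 5 other zinc finger genes and pseudogenes 4 rose, and all 3 tested bodies of the other genes of the list rose (ERVV-1, ERVV-2 and VN1R2), as did FAM90A27P and ENSG00000269825, which are on no list. Leaving out any 1 library left between 16 and 22 calls, and limma called 7 (0.525% of all bodies).

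ZNF600 had the largest rise of the zinc finger genes, from 15.0% and 15.8% in WT to 66.6% and 58.5% in ZNF274KO (47.1 points, adjusted p = 1.55e-07, edgeR). ZNF578 went from 14.4% and 15.4% to 64.4% and 53.0%. Its body begins at chr19:52957807, before the region, so that its 844 CpG sites include sites outside the region. The pseudogene ZNF702P went from 20.2% and 19.2% to 67.0% and 53.3%. In all 3 the knockout libraries differed far less from each other than from WT. ERVV-1, which lies inside ZNF702P, had the largest rise of all bodies, from 4.88% and 4.44% to 75.6% and 56.1%, but over only 15 CpG sites. ERVV-2 went from 17.3% and 19.4% to 64.6% and 40.1%. Smaller rises were measured in ZNF665, from 18.2% in both WT libraries to 41.1% and 25.1%, and in VN1R2, from 7.32% and 5.52% to 24.6% and 18.3%. Besides ZNF28 and ZNF320, the other bodies that rose were those of ZNF808, ZNF137P, ZNF83, ENSG00000269825, ZNF415, ZNF347, ZNF818P, FAM90A27P, ZNF525, ZNF813 and ZNF331, by 20.2 to 40.4 points. Among them ZNF331 went from 38.8% and 39.8% to 77.5% and 64.9%, with a similar WT level and rise in its last coding exon. When CpG sites in repeated stretches were left out, ZNF137P (adjusted p = 0.0729), VN1R2 (0.114) and FAM90A27P (0.0868) were no longer called in edgeR, with differences of 21.5, 8.30 and 16.6 points.

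**Figure D3:**
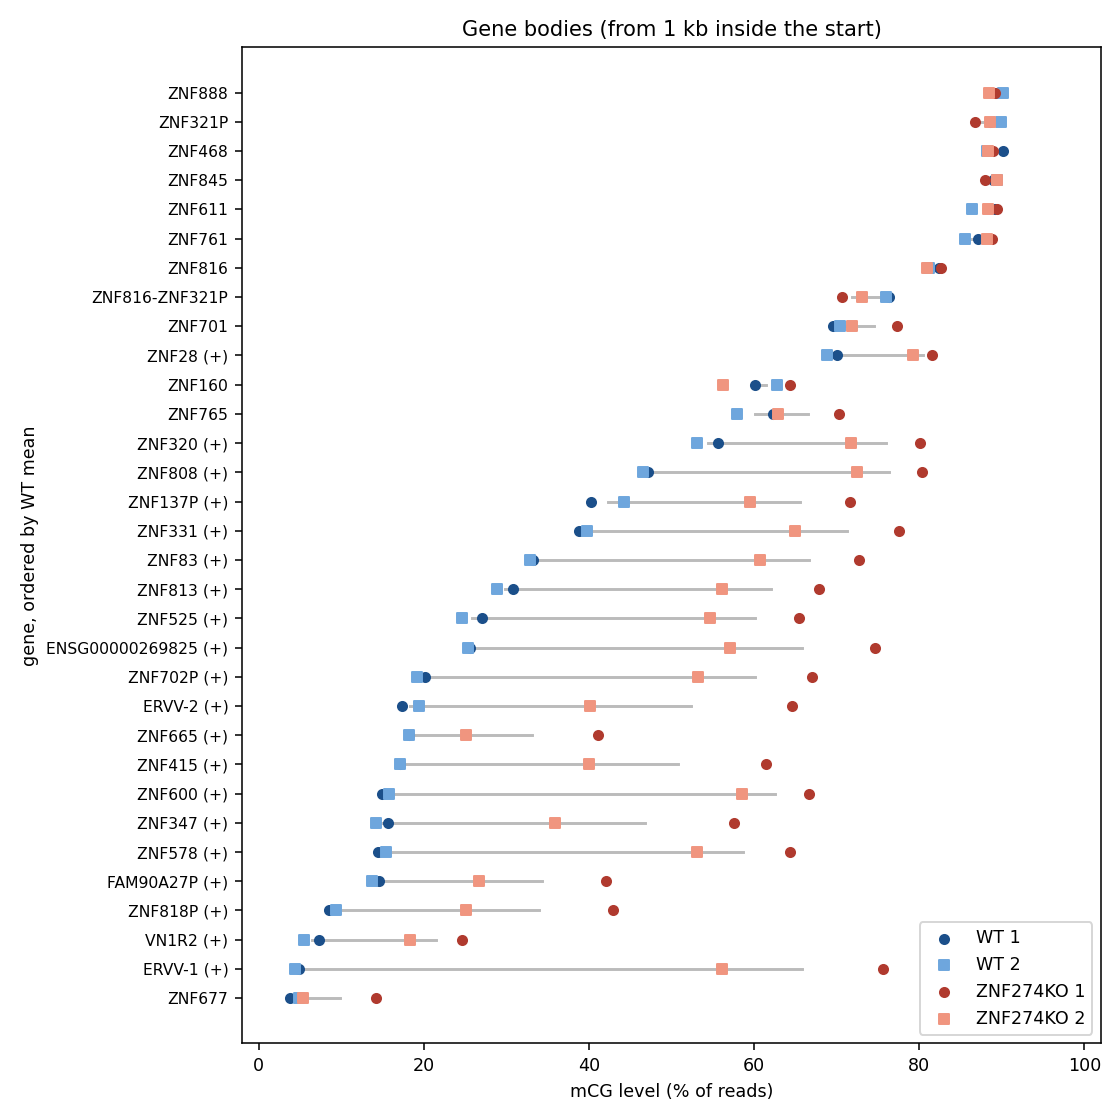
mCG level (percentage of reads, horizontal axis) of 32 gene bodies in each library, ordered by their WT mean; grey lines join the mean of the 2 WT libraries (blue) to that of the 2 ZNF274KO libraries (red), and (+) marks the 20 bodies called higher. The 7 bodies at 80% or more in WT keep their place, while 18 of the 19 bodies under 50% were called higher.

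The bodies were split by their WT level, and those high in WT again had little room to rise. Of 19 bodies under 50% in WT, 18 rose, where 6.09% of such bodies were called higher over the genome. The exception was ZNF677, at 3.76% and 4.89% in WT and 14.2% and 5.38% in ZNF274KO. Of 6 bodies between 50% and 80%, ZNF28 and ZNF320 rose (0.817% over the genome). Of the 7 bodies above 80% none was called in edgeR, none had an unadjusted p under 0.05, and their differences ran from -1.57 to 2.18 points (0.0247% called higher over the genome). These 7 were ZNF611, ZNF468, ZNF888, ZNF321P, ZNF816, ZNF845 and ZNF761. The largest fall was that of the read-through gene ZNF816-ZNF321P, from 76.3% and 75.9% to 70.7% and 73.1%, and it did not pass the test (adjusted p = 0.381, edgeR).

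ZNF28 and ZNF468 start next to each other on the minus strand, and nearly all of ZNF468 lies within ZNF28. The body of ZNF28 went from 70.0% and 68.8% to 81.5% and 79.2% (11.0 points, adjusted p = 0.00043, edgeR). The body of ZNF468 read 90.2% and 88.2% in WT and 88.9% and 88.3% in ZNF274KO, and the genotypes differed by less than the spread of the WT libraries. The part of ZNF28 beyond the 3′ end of ZNF468 (chr19:53300661-53341262, 708 CpG sites) went from 62.8% and 62.1% to 79.0% and 75.9%. The rise in ZNF28 thus lay in the stretch that ZNF468 does not cover. Other genes overlap as well, and those pairs are not independent: ZNF137P with ZNF83, ZNF83 with ENSG00000269825, ZNF415 with ZNF347, ZNF525 with ZNF765, ZNF808 with ZNF701, and ZNF816-ZNF321P with ZNF816 and ZNF321P.

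The last coding exon was tested in 29 protein-coding genes, and 23 of these exons held C2H2 motifs, from 7 to 26 each. In 10 genes the exon rose in ZNF274KO and in none did it fall, against 0.714% called higher and 0.042% called lower over the genome. They were ZNF578, ZNF808, ZNF83, ENSG00000269825, ZNF600, ZNF347 and ZNF331, with finger arrays, and ERVV-1, ERVV-2 and FAM90A27P without. The exon of ZNF600 read 1.88% and 4.57% in WT and 59.2% and 40.2% in ZNF274KO (adjusted p = 9.9e-05, edgeR). That of ENSG00000269825 had the largest rise, from 7.14% and 6.45% to 64.7% and 42.6%, and that of ZNF578 went from 0.595% and 0.962% to 57.6% and 30.4%. The exon of ZNF816-ZNF321P, which holds no finger motif and only 5 CpG sites, had the largest fall, from 94.9% and 94.1% to 89.4% and 80.6%, and was not called.

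The exon of ZNF28 read 83.1% and 78.8% in WT and 92.6% and 91.5% in ZNF274KO (11.2 points, adjusted p = 0.279, edgeR), and that of ZNF468 read 90.6% and 89.3% against 89.3% and 90.2%. Exons hold few reads, between 34 and 407 per library, and the calls depended on which libraries were kept. Without ZNF274KO 1 none of the 29 exons was called in edgeR, with 14 at an unadjusted p under 0.05, and 0 exons were called genome-wide. Without WT 1 or ZNF274KO 2 there were 6 calls each (0.462% and 0.399% of all exons), and limma called none (0.0945% of all exons), with 15 at an unadjusted p under 0.05. Without CpG sites in repeated stretches the exon of FAM90A27P was no longer called (adjusted p = 0.0787, edgeR), and those of ERVV-1 and ERVV-2 had too few sites or reads to be tested.

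Promoters, taken as 1000 bases on either side of the start, did not move one way. Of 32 that could be tested (the start of ZNF578 lies outside the region) 6 rose and 3 fell, where 0.242% of all promoters of the genome were called higher and 0.0606% lower. The promoters that fell were those of ZNF28, ZNF468 and ZNF611. Those that rose were ZNF701, ZNF702P, ZNF765, ZNF818P, ZNF331 and ERVV-1. Of the 22 promoters with 60 or more CpG sites 1 rose and 3 fell, with a median difference of -2.38 points, against 0.126% called higher and 0.0891% lower among such promoters of the genome. Of the 10 with fewer, 5 rose and none fell, with a median of 24.0 points, against 0.489% and 0%. This split was not repeated with representative starts, at which the promoters of ZNF701 and ZNF765 turned to falls that were not called.

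The promoter of ZNF28 (94 CpG sites) read 28.0% and 24.8% in WT and 2.23% and 5.99% in ZNF274KO (-22.3 points, adjusted p = 0.00485, edgeR). That of ZNF468, which overlaps it almost wholly, read 27.9% and 24.7% in WT and 1.91% and 5.71% in ZNF274KO, so that the pair is a single observation. The promoter of ZNF611 read 22.7% and 23.1% in WT and 6.88% and 8.06% in ZNF274KO (-15.4 points, adjusted p = 0.0172, edgeR). In both places the genotypes were apart by several times the spread within a genotype. With the start that ZNF28 has next to that of ZNF468, its promoter fell while its body rose. With its representative start, which lies inside the gene, the ZNF28 promoter moved by -6.87 points and was not called. The bodies of ZNF468 and ZNF611 stayed high.

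Among the promoters that rose, ZNF331 had the largest difference, from 34.3% and 31.3% to 77.0% and 62.1% (36.7 points, adjusted p = 0.012, edgeR). ZNF701 went from 39.3% and 38.1% to 80.8% and 67.1%, ZNF702P from 35.2% and 36.7% to 77.6% and 61.8%, and ZNF765 from 39.1% and 43.6% to 73.8% and 63.0%. ERVV-1 went from 21.6% in both WT libraries to 65.4% and 44.8%. ZNF818P, a pseudogene, started low, at 9.52% and 7.86%, and reached 38.5% and 25.3%. Without ZNF274KO 1, 3 promoters were called (ZNF28, ZNF468 and ZNF331), against 0.182% genome-wide, and limma called 0 promoters of the genome, with 18 of 32 at an unadjusted p under 0.05. When CpG sites in repeated stretches were left out, ERVV-1 (adjusted p = 0.457), ZNF702P (0.0635) and ZNF818P (0.0513) were no longer called in edgeR, with differences of 27.7, 30.7 and 16.2 points.

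**Figure D4:**
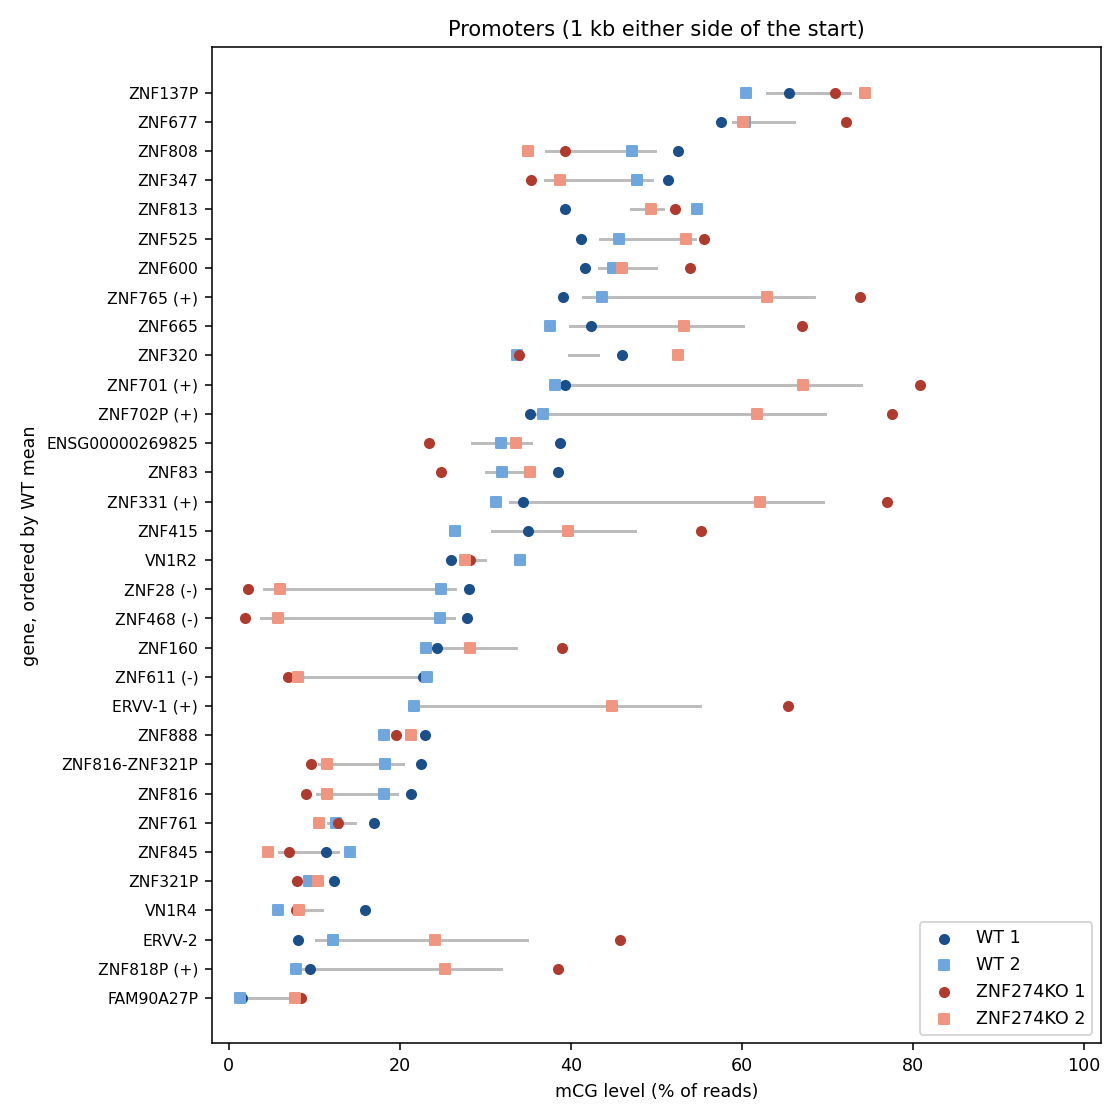
mCG level (percentage of reads, horizontal axis) of 32 promoters (1000 bases on either side of the gene start) in each library, ordered by their WT mean; grey lines join the means of WT (blue) and ZNF274KO (red). (+) marks the 6 promoters called higher and (-) the 3 called lower, which are those of ZNF28, ZNF468 and ZNF611.

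The choice of start mattered. With 500 bases on either side none of the 32 promoters was called in edgeR (0.00524% genome-wide), with 14 at an unadjusted p under 0.05, and the difference of ZNF28 shrank to -0.866 points. With the start of the representative transcript of each gene, 4 were called, against 0.202% genome-wide. For ZNF28 that start lies inside the gene, and its promoter then moved by -6.87 points and was not called. ZNF468 kept -22.3 points. ZNF701 and ZNF765 then turned to -13.3 and -10.2 points without passing the test. ZNF331 then moved by 14.4 points (adjusted p = 0.301, edgeR) and ERVV-1 by 33.5 points (adjusted p = 0.0614, edgeR), and neither was called. ZNF331 has 3 groups of annotated starts. The first (chr19:54021781-54026110) went from 48.4% and 50.6% to 73.3% and 65.7%. The second (chr19:54039507-54043042) went from 67.3% and 66.4% to 87.5% and 81.5%, and the third (chr19:54056753-54059741) from 71.6% and 66.8% to 92.1% and 83.4%. All 3 were higher in both ZNF274KO libraries, and alleles were not separated.

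The position of the loss within the promoters was described in 250 base bins and in zones chosen after the values were seen, with no test. At the start of ZNF28 and ZNF468 the core (250 bases on either side) read 0% in all libraries. The upstream edge, the rest of the promoter before the start, read 86.9% and 85.7% in WT and 4.72% and 15.5% in ZNF274KO over 29 CpG sites. At ZNF611 the core was under 1% in all libraries, and the upstream edge read 90.8% and 85.9% in WT and 25.8% and 27.9% in ZNF274KO. At ZNF28 the ZNF274KO level was low in every bin from the start through the upstream edge. At ZNF611 it was not, and the bin of the edge nearest to the core read 54.2% and 45.3% and the farthest 5.79% and 12.2%.

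**Figure D5:**
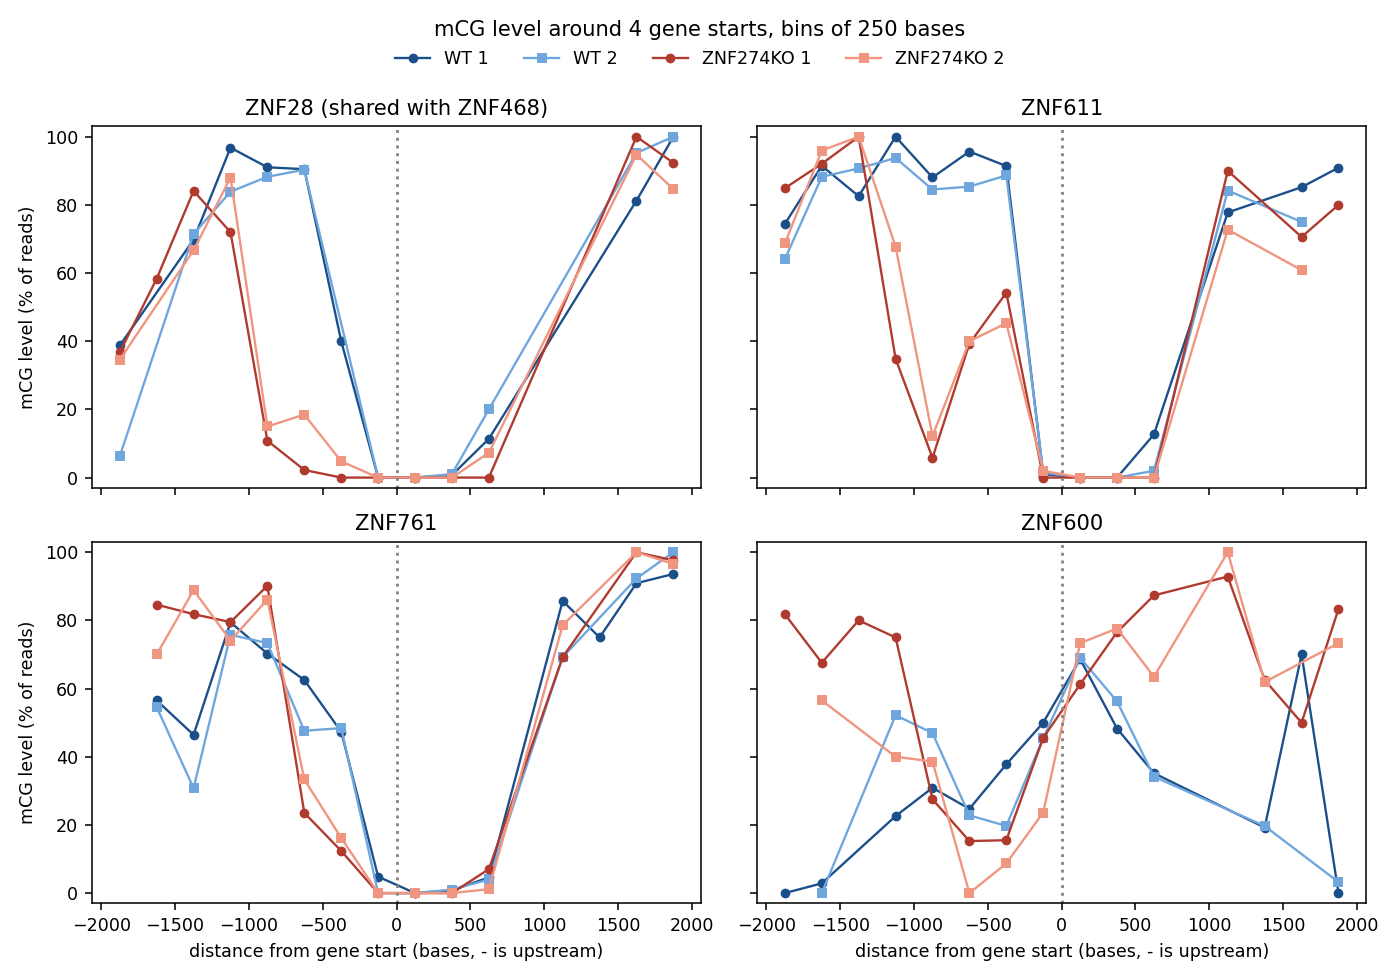
mCG level (percentage of reads, vertical axis) in bins of 250 bases against the distance from the gene start (bases, negative upstream) for ZNF28, ZNF611, ZNF761 and ZNF600 in each library; bins with under 10 reads in a library are left out. At ZNF28 the ZNF274KO lines (red) stay low farther upstream than the WT lines (blue), at ZNF611 they are low at the core and again in the farthest bin of the upstream edge, at ZNF761 the drop is smaller, and at ZNF600, which has no unmethylated start, ZNF274KO lies above WT in the outermost upstream bins and in most bins downstream.

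Such unmethylated starts were found in 9 genes, those with a WT core level under 2% over at least 20 CpG sites. They were ZNF611, ZNF28, ZNF468, ZNF888, ZNF321P, ZNF816-ZNF321P, ZNF816, ZNF845 and ZNF761. In all 9 the upstream edge was lower in each ZNF274KO library than in either WT library, with differences from -76.2 to -5.62 points, and over the genome 18.9% of 8971 such starts had a lower edge by this measure. Several of the 9 share their edge (ZNF28 with ZNF468, ZNF816 with ZNF816-ZNF321P). The bodies of these pairs overlap too, as does that of ZNF321P with ZNF816-ZNF321P. ZNF28 is among the 9 by its outermost annotated start, since its representative start lies inside the gene. Of the other 12 genes with as many CpG sites at the start, 2 had a lower upstream edge (ZNF808 and ZNF600) and 8 a higher one, against 21% and 14.3% of such genes genome-wide. Among these 8, ZNF83 and ENSG00000269825 are counted separately, though their edges and their bodies overlap. The 7 genes with a body above 80% in WT were all among the 9, and of the 9 bodies only that of ZNF28 rose, where 0.404% of the bodies behind such starts were called higher over the genome. Of the other 12 bodies 10 rose, against 2.87%.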

How the data were processed

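Samples were EM-seq libraries of HEK293T cells, grouped as WT or ZNF274KO with the replicate numbers of their titles. The authors aligned reads with Msuite2 and HISAT2 to hg19 and deposited, per library, read counts per CpG site and strand. C calls were taken as methylated and T calls as unmethylated, other calls were dropped, and both strands were summed. Duplicate and mapping filters of these counts are not given in the sources used here. Every site fell on a CG of GRCh37. Gene models (protein-coding genes and all genes named ZNF) were those of GENCODE release 44 lifted to GRCh37.

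Regions with at least 20 reads and 5 CpG sites in every library were compared by edgeR 4.0.16 (R 4.3.3, quasi-likelihood F test), with a coefficient per library, the methylation log-odds per genotype and 1 common dispersion per kind of region, and Benjamini-Hochberg adjustment over all regions of that kind on the autosomes and X. The fit was tested on simulated counts with the same spread between libraries in both genotypes. In the region ZNF274KO libraries differed more than WT libraries (median SD 7.03 against 1.77 points over 5 kb tiles), which the simulation did not cover. Alternatives were other read minimums, tile, promoter and body definitions, limma 3.58.1 with a pseudocount of 1, a replicate block, CpG sites over 5 times the median depth or in repeated converted stretches of 50 bases left out, and each library left out. Named were ZNF28, ZNF468, ZNF331, every called gene, and the largest rises and falls of each kind. Region, gene lists and tests were chosen with earlier results of these data known.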

Additional observations from a re-analysis of the deposited data

How the results depend on the processing

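The difference of the region level lay between 19.6 and 21.0 points when CpG sites were unweighted, split by strand or left out for depth or repeats, and between 16.3 and 25.7 points when 1 library was left out. Relative to the genome these ranges were 20.1 to 21.6 and 17.8 to 25.3 points. With limma 22 tiles, 0 promoters, 7 gene bodies and 0 last coding exons were called. Tiles of 2 kb gave 302 calls and tiles of 10 kb 66. Promoters of 500 bases on either side gave 0 calls and representative starts 4. Without 1 library, in fits where a lone library was assumed to vary like the others, tiles had 103 to 142 calls, promoters 3 to 11, gene bodies 16 to 22 and last coding exons 0 to 10. The lowest counts of these were all without ZNF274KO 1. Values that turned sign were those of the promoters of ZNF701 (-13.3 points) and ZNF765 (-10.2) at representative starts, the body of ZNF468 without repeated CpG sites (0.861), with its promoter included (1.01) and without WT 1 (0.384, from -1.57 to 0.384 over the libraries left out), and its last coding exon without WT 1 (0.479) and without ZNF274KO 1 (0.279, from -0.878 to 0.479 over the libraries left out). None of these passed the test there, and the cause was not tested. Same-numbered libraries did not deviate together (r = -0.108 over all tiles), so that numbers were not taken as pairs. With a replicate block 140 tiles, 12 promoters, 18 gene bodies and 13 last coding exons were called, and the region levels stayed at 21.0 and 21.5 points. With the numbers crossed, an alternative added after the data were seen, the counts were 143, 12, 21 and 13. Of 699 alternative values under these settings, 587 were classed as the same as in the main fit. For named regions (530 of 630) this meant the same direction and the same side of the threshold, called or not. For counts and region levels (57 of 69) it meant a count of similar size or a level difference of the same sign. Of 45 named regions called in the main fit, limma still called 12. With 2 libraries per genotype, a median of 6 to 8 reads per site and as few as 34 reads per exon, a p that misses the threshold does not show that levels were equal.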
